A study of Homo sapiens with 4 samples.

Results

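The 10 genes described here encode proteins that carry glucose into the cell, trap it, set the pace of glycolysis and send its end products on. They are the glucose transporter genes SLC2A1 and SLC2A3, the hexokinase genes HK1 and HK2, and the genes PFKFB3 and PFKFB4. The others are the lactate dehydrogenase gene LDHA, the pyruvate dehydrogenase kinase gene PDK1, and the lactate transporter genes SLC16A1 and SLC16A3. They were picked out of the table by gene name, from a list drawn up with earlier results of these data known, and each name matched a single row of the 58735 in the table of gene counts. All 10 passed the filter on low counts. The cells were SW1990, an established human pancreatic cancer line, treated for 24 h with gomisin G at 10 µM (2 libraries) or with vehicle (2 libraries), whose composition the labels do not give. Gomisin G is a lignan found in Schisandra plants. All 4 libraries thus come from a single line, and the labels do not say whether replicates were separate cultures. The p-values therefore rest on a spread between libraries that may be technical only. In bulk RNA, a lower level in every cell and fewer cells with the transcript cannot be told apart.

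Glucose enters most cells through facilitative transporters of the GLUT family and is phosphorylated by hexokinases, which keeps it inside. Phosphofructokinase is driven by fructose 2,6-bisphosphate, which the PFKFB enzymes make and degrade. Pyruvate then either enters mitochondria, a step that pyruvate dehydrogenase kinases restrain, or becomes lactate, which leaves through monocarboxylate transporters. Many pancreatic cancers rely on this route, and several of its genes are targets of the hypoxia-inducible factor HIF-1 and of MYC.

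Total counts were 15034663 and 15245770 in the gomisin G libraries and 14580848 and 14901526 in the vehicle libraries, and 15721 genes were tested. Levels are CPM, each count scaled to the library's total over the tested genes after TMM scaling, a correction for differences in library composition. A gene is called when its adjusted p (edgeR's quasi-likelihood test, Benjamini-Hochberg over all tested genes) is below 0.05, and log2 changes are gomisin G minus vehicle. The 7 epithelial markers summed to 9341 and 7009.9 CPM with gomisin G and to 11234 and 9435 CPM in vehicle. KRT8 held the largest part, at 4790 and 3663 CPM with gomisin G, against 6572 and 5332 CPM in vehicle. EPCAM lay at 545 to 709 CPM with gomisin G and 491 to 536 CPM in vehicle. KRT7 lay at only 0.884 to 2.07 CPM with gomisin G and 0.875 to 0.966 CPM in vehicle. Both gomisin G libraries were below both vehicle libraries for KRT8, KRT18 and CDH1, 3 of the 7. They were above for EPCAM, KRT19 and MUC1, also 3 of the 7. Such order held in 27.3% and 27.0% of all tested genes, and edgeR called 0 of the 7. Immune markers, 6 genes with PTPRC at 0, summed to at most 0.0631 CPM with gomisin G and at most 0.483 CPM in vehicle. Endothelial markers, 4 genes, summed to at most 0.821 CPM with gomisin G and at most 0.966 CPM in vehicle. Fibroblast markers, 9 genes, summed to 8.57 and 12.1 CPM with gomisin G and to 4.83 and 4.91 CPM in vehicle. COL1A1 and PDGFRB made up nearly all of that sum, COL1A2, LUM and THY1 were at 0, while the other 4 held at most 4 counts in a library. The part of these markers in the results was not tested.

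A single gene of the 10 changed past the threshold. SLC2A3 transcripts fell 3.47-fold, while the main transporter transcript SLC2A1 was not called. HK2, a hexokinase gene, and PFKFB3, a gene for an enzyme that makes fructose 2,6-bisphosphate, had lower values in both gomisin G libraries without being called. HK1 had the same mean level in both groups. Of all tested genes 1.83% were called, 0.903% as lower and 0.922% as higher, beside 1 of these 10. DESeq2 called 3 of the 10 and 5.62% of all tested genes, and limma voom called 1 of the 10 and 1.58% of all. With edgeR, 5 of the 10 were called when gomisin G replicate 1 was left out and 6 when gomisin G replicate 2 was, against 1 without either vehicle library. In these fits 2835, 6322, 160 and 135 of all genes were called, without gomisin G replicates 1 and 2 and vehicle replicates 1 and 2 in turn. The median log2 change of the 10 genes was -0.32, beside 0.01 over all tested genes, and 9 of the 10 had a negative value, as did 49.3% of all tested genes. The 9 include HK1, whose change rounded to 0.00 and whose sign turned with the setting. In 6 of the 10 genes both gomisin G libraries lay below both vehicle libraries, and in 0 of them above. Over all tested genes these shares were 27.3% and 27.0%.

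**Figure D1:**
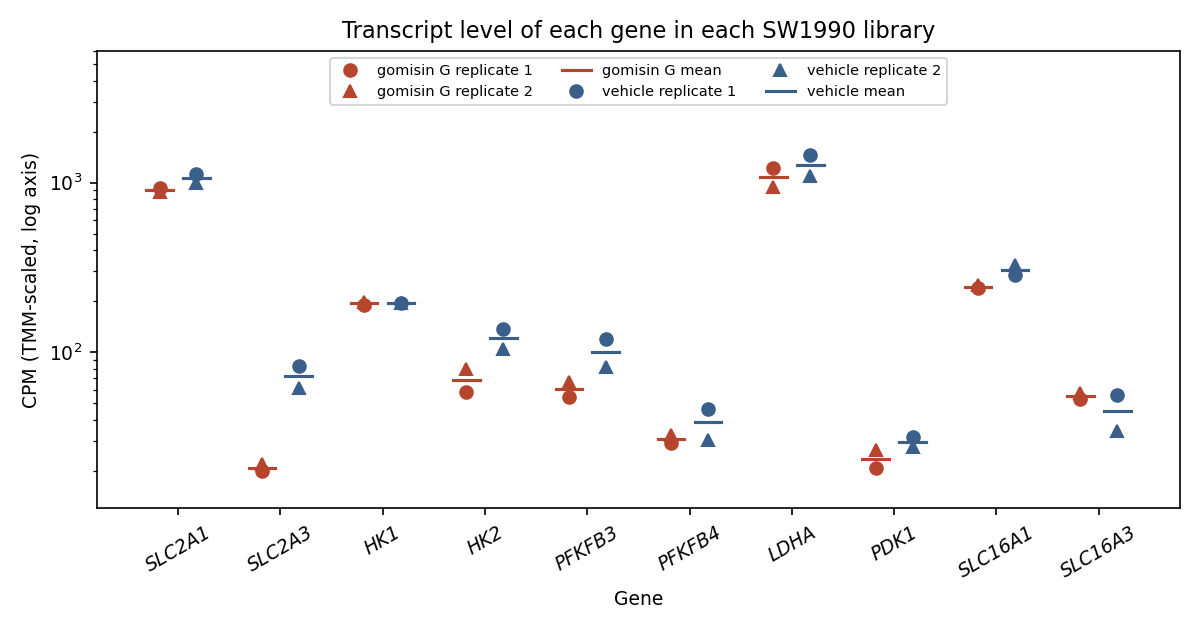
Transcript level of each of the 10 genes in each library, in TMM-scaled CPM on a log axis, with gomisin G left of vehicle, a circle for replicate 1, a triangle for replicate 2 and a line for the mean. SLC2A3 lies at 19.9 and 21.9 CPM with gomisin G, well below its vehicle values, and HK1 overlaps between the groups.

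SLC2A3 encodes GLUT3, a transporter of high glucose affinity best known from neurons. It lies on chromosome 12 at 7919230 to 7936275 (minus strand, GRCh38). It had 288 and 347 counts in the gomisin G libraries, against 1206 and 918 counts in the vehicle libraries. These are 19.9 and 21.9 CPM with gomisin G, against 83.2 and 61.8 CPM in vehicle. Both treated libraries were far below both vehicle libraries, and the gap between groups exceeded the gap within either. The log2 change was -1.79 (SE 0.20, edgeR adjusted p = 0.0113), or 3.47-fold lower, and SLC2A3 ranked 27 of all tested genes by p. SLC2A3 was called in all 13 alternative settings, with log2 changes from -1.99 to -1.57.

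SLC2A14, a close copy of SLC2A3, can take or lose its reads. Of all 100-base windows of annotated SLC2A3 transcripts, 4.19% also occur in transcripts of other genes, mainly SLC2A14. SLC2A14 itself had 6 counts over all 4 libraries and was not tested. The counts of SLC2A3 are therefore those of a gene whose copy was nearly silent in this table, although the sources used here do not give how reads matching several places were counted.

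SLC2A1 encodes GLUT1, the basal glucose transporter of many cell types and the usual one of carcinoma cells. The gene lies on chromosome 1 at 42925375 to 42959176 (minus strand). It had 933 and 876 CPM with gomisin G, against 1121 and 1002 CPM in vehicle. The groups did not overlap, but they lay close together. The log2 change was -0.23 (SE 0.18, edgeR adjusted p = 0.499), which did not pass the test. Within a library, the ratio of SLC2A3 to SLC2A1 does not depend on how libraries are scaled. Counted per kilobase of exons, it was 0.0164 and 0.0192 with gomisin G, against 0.0570 and 0.0473 in vehicle. The mean log2 ratio differed by -1.55 between the groups. With 2 libraries against 2, the exact two-sided permutation test cannot give a p below 0.333, the value found here and for each of the 4 ratios described after it. SLC2A1 transcripts were thus the more abundant in every library by a wide margin.

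Hexokinases phosphorylate glucose in the first step of glycolysis. HK2 lies on chromosome 2 at 74833981 to 74893359 and HK1 on chromosome 10 at 69269984 to 69401884, both on the plus strand. HK2, the inducible form raised in many tumours, had 58.1 and 79.4 CPM with gomisin G, against 138 and 105 CPM in vehicle. Both treated libraries were lower, but each group was itself spread. The log2 change was -0.82 (SE 0.21) with an edgeR adjusted p of 0.0920, short of the threshold. HK1, the constitutive form, had 191 and 199 CPM with gomisin G, against 194 and 196 CPM in vehicle, a log2 change of 0.00 (SE 0.15, edgeR adjusted p = 0.999). Over the 13 alternative settings the log2 change of HK1 stayed between -0.03 and 0.08. Per kilobase, HK2 stood to HK1 at 0.316 and 0.414 with gomisin G, against 0.739 and 0.554 in vehicle. HK1 transcripts exceeded HK2 transcripts in all 4 libraries, and the lead was larger in both gomisin G libraries (difference in mean log2 ratio -0.82, exact permutation p = 0.333). The close copy HK2P1, a pseudogene, shares 100-base windows with HK2 transcripts, of which 2.60% occur in other genes.

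PFKFB3 encodes the form with the highest kinase over phosphatase activity, which raises fructose 2,6-bisphosphate and so activates phosphofructokinase. It lies on chromosome 10 at 6144934 to 6254644 (plus strand), and PFKFB4 on chromosome 3 at 48517684 to 48562015 (minus strand). PFKFB3 had 54.4 and 67.1 CPM with gomisin G, against 119.9 and 81.4 CPM in vehicle. The treated libraries were below both vehicle libraries, although the vehicle pair differed by 0.56 on the log2 scale. The log2 change was -0.73 (SE 0.22, edgeR adjusted p = 0.127). DESeq2 called both HK2 (adjusted p = 0.0131) and PFKFB3 (adjusted p = 0.0406) at the same sizes, -0.82 and -0.73, and limma voom called neither of them. Over all alternatives, replicate libraries left out included, adjusted p ran from 6.09e-14 to 0.579 for HK2 and from 8.47e-10 to 0.756 for PFKFB3. PFKFB4, a second hypoxia-inducible form, had 29.2 and 32.3 CPM with gomisin G, against 46.6 and 30.5 CPM in vehicle. These groups overlapped, because vehicle replicate 2 fell between the treated libraries. Its log2 change of -0.32 (SE 0.22, edgeR adjusted p = 0.440) became 0.01 without vehicle replicate 1. Per kilobase, PFKFB4 stood to PFKFB3 at 0.538 and 0.482 with gomisin G, against 0.389 and 0.375 in vehicle, a difference in mean log2 ratio of 0.42 (exact permutation p = 0.333).

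Of the remaining genes for enzymes that make or remove these bisphosphates, 5 in all, 2 were tested. PFKFB2, best known as the heart form, fell with gomisin G. It had 16.1 and 19.9 CPM with gomisin G, against 37.8 and 40.8 CPM in vehicle, with a log2 change of -1.12 (SE 0.18, edgeR adjusted p = 0.0315). Leaving out vehicle replicate 1 ended the call (log2 change -1.19, edgeR adjusted p = 0.0534), as did leaving out vehicle replicate 2 (-1.07, edgeR adjusted p = 0.119), and over all alternatives adjusted p ran from 1.09e-12 to 0.119. Of its exonic bases, 3.1% are shared with YOD1 on the opposite strand, and the sources used here do not say whether counting used strand. PFKFB1, FBP1 and FBP2 were too low to test. TIGAR, whose product degrades fructose 2,6-bisphosphate, had a log2 change of -0.18 (edgeR adjusted p = 0.836), a value made uncertain by the 45.6% of its exonic bases shared with other genes.

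LDHA encodes the M subunit of lactate dehydrogenase, which favours lactate from pyruvate, and lies on chromosome 11 at 18394388 to 18408425 (plus strand). It was the most abundant of the 10 in CPM, at 1216 and 937 CPM with gomisin G, against 1450 and 1099.9 CPM in vehicle. The groups overlapped: replicate 1 was the higher library in each group. The log2 change was -0.24 (SE 0.23, edgeR adjusted p = 0.565). LDHB, the H subunit gene, had 103 and 58.2 CPM with gomisin G, against 79.5 and 58.3 CPM in vehicle (log2 change 0.22, edgeR adjusted p = 0.681, and -0.25 when gomisin G replicate 1 was left out). Per kilobase, LDHA exceeded LDHB 5.68-fold and 7.73-fold with gomisin G, against 8.75-fold and 9.05-fold in vehicle (difference in mean log2 ratio -0.43, exact permutation p = 0.333). Leaving out gomisin G replicate 1 gave -0.20, and leaving out gomisin G replicate 2 gave -0.65. LDHB values are uncertain, since 33.4% of its exonic bases are shared with another annotated gene. PDK1, which inhibits pyruvate dehydrogenase by phosphorylation, was the least abundant per kilobase. It lies on chromosome 2 at 172555373 to 172608669 (plus strand). It had 20.7 and 26.6 CPM with gomisin G, against 31.5 and 27.5 CPM in vehicle, groups that did not overlap but nearly touched (log2 change -0.32, SE 0.19, edgeR adjusted p = 0.379).

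SLC16A1 and SLC16A3 encode MCT1 and MCT4, proton-coupled lactate carriers. MCT4 is the form typical of cells that export much lactate. SLC16A1 lies on chromosome 1 at 112911847 to 112957013 (minus strand) and SLC16A3 on chromosome 17 at 82228397 to 82261129 (plus strand). SLC16A1 had 238 and 248 CPM with gomisin G, against 284 and 328 CPM in vehicle, with both treated libraries lower (log2 change -0.33, SE 0.16, edgeR adjusted p = 0.292). SLC16A3 had 53.1 and 57.2 CPM with gomisin G, against 56.3 and 34.1 CPM in vehicle, and was the only member with a positive log2 change (0.29, SE 0.24, edgeR adjusted p = 0.517). That sign rested on vehicle replicate 2, without which it was -0.03. Per kilobase, SLC16A3 stood to SLC16A1 at 0.132 and 0.136 with gomisin G, against 0.117 and 0.0615 in vehicle. Their difference in mean log2 ratio of 0.66 (exact permutation p = 0.333) was 0.19 when vehicle replicate 2 was left out and 1.12 when vehicle replicate 1 was. Of the exonic bases of SLC16A3, 5.4% are shared with CSNK1D, an abundant gene on the opposite strand.

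**Figure D2:**
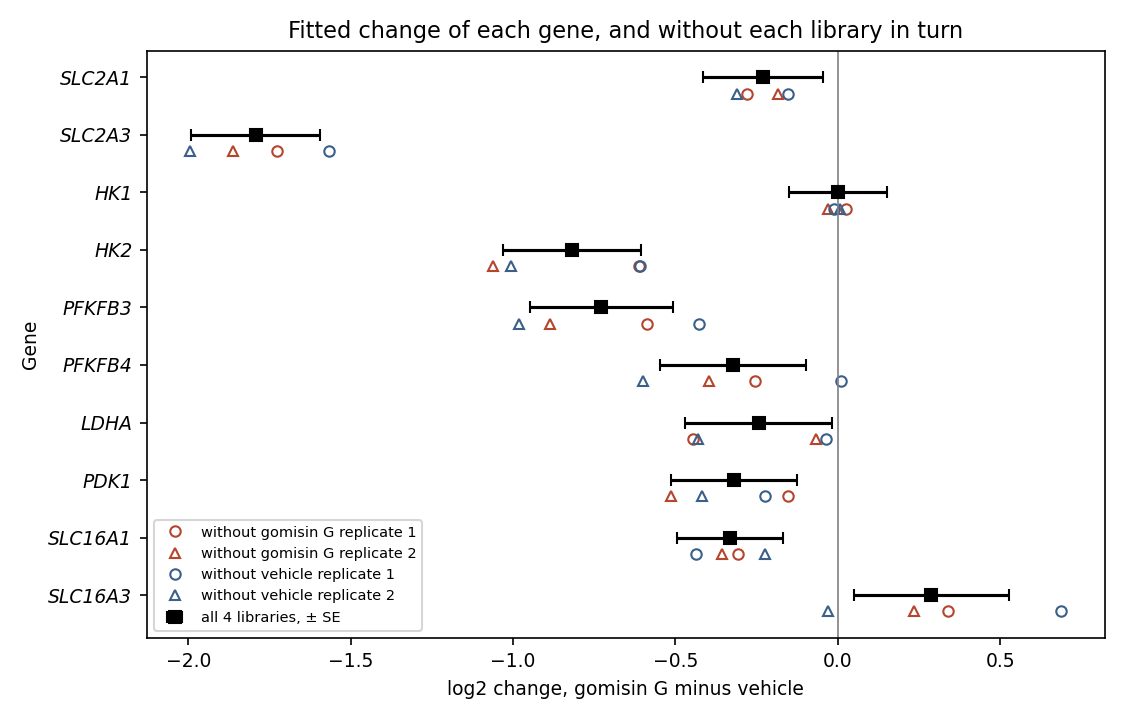
Fitted log2 change of each gene, gomisin G minus vehicle, with its SE (black squares), and the change fitted without each library in turn (open symbols). SLC2A3 stays between -1.99 and -1.57 without any library, whereas PFKFB4 and SLC16A3 cross 0 when a vehicle library is left out.

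Per kilobase of exons the order of levels was much the same in both groups. With gomisin G it ran from SLC2A1 (191 ± 8.56 CPM per kilobase, SD, n = 2 libraries) and LDHA (173 ± 31.8) through SLC16A1 (45.8 ± 1.24) and HK1 (31.0 ± 0.896) to HK2 (11.3 ± 2.49) and PFKFB3 (9.94 ± 1.47). Below them came SLC16A3 (6.13 ± 0.32), PFKFB4 (5.04 ± 0.359), SLC2A3 (3.39 ± 0.231) and PDK1 (1.59 ± 0.281). In vehicle, SLC2A1 (225 ± 17.8) and LDHA (205 ± 39.8) again led, followed by SLC16A1 (57.6 ± 5.91), HK1 (31.0 ± 0.238), HK2 (20.003 ± 3.90) and PFKFB3 (16.5 ± 4.45). SLC2A3 followed at 11.8 ± 2.46, ahead of PFKFB4 (6.31 ± 1.86), SLC16A3 (5.03 ± 1.74) and PDK1 (1.98 ± 0.190). SLC2A3 thus stood above PFKFB4 and SLC16A3 in vehicle and below both with gomisin G. Within either group, the ranges of mean ± SD overlapped for SLC2A1 and LDHA and for HK2 and PFKFB3, and in vehicle for PFKFB4 and SLC16A3. Within every single library, though, SLC2A1 was above LDHA and HK2 above PFKFB3. In both vehicle libraries PFKFB4 was above SLC16A3. These differences between genes were not tested. Lengths are those of all annotated exons of a gene, so levels of genes with many unused exons, such as PDK1 with 14883 bases, are understated.

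**Figure D3:**
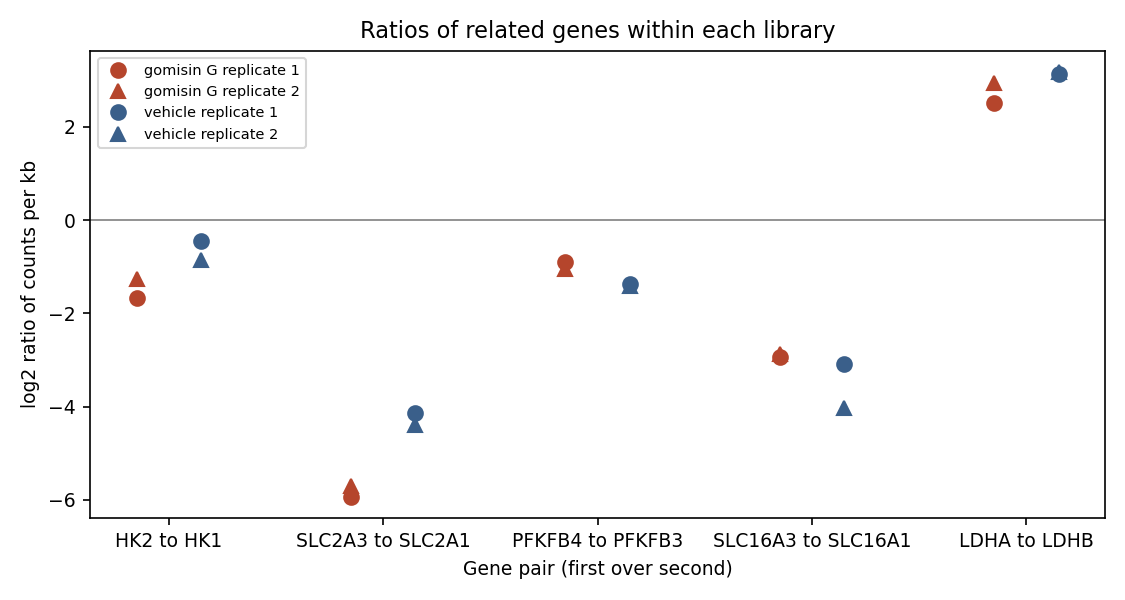
Log2 ratio of counts per kilobase for 5 pairs of related genes within each library, gomisin G left of vehicle, circles for replicate 1 and triangles for replicate 2. The SLC2A3 to SLC2A1 ratio lies at -5.93 and -5.70 with gomisin G, against -4.13 and -4.40 in vehicle, and vehicle replicate 2 stands apart for SLC16A3 to SLC16A1.

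The members differed between replicates as well as between groups. In 8 of the 10 genes vehicle replicate 1 was above vehicle replicate 2, beside 7878 of all 15721 tested genes. The median log2 difference of the 10 was 0.40, beside 0.00 over all tested genes. The widest such gaps were those of SLC16A3 (0.72), PFKFB4 (0.61) and PFKFB3 (0.56). Of 20 HIF target genes outside glycolysis, such as VEGFA and ADM, 16 were likewise higher in vehicle replicate 1, with a median of 0.35. So were all 17 tested genes of the other glycolytic enzymes, with a median of 0.16. The summed level of the HIF targets was 990 and 1039.6 CPM with gomisin G, against 1212 and 887 CPM in vehicle replicates 1 and 2. In the gomisin G pair, replicate 1 was above replicate 2 in 2 of the 10 members, with a median of -0.12, and in 10 of the 20 HIF targets. Over all 15721 tested genes it was above in 7603. The part of this spread within vehicle in the members' changes was not tested, but without vehicle replicate 1 the log2 change was -0.61 for HK2, -0.43 for PFKFB3 and -1.57 for SLC2A3. Without vehicle replicate 2 it was -1.01, -0.98 and -1.99 for the same genes.

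As a description over 4 libraries, the profiles of HK2 and PFKFB3 were the closest pair among the members. Their centred log2 CPM values lay 0.19 apart (Euclidean distance). SLC2A3 was the most distant member: its nearest was HK2, at 0.98, and its farthest SLC16A3, at 2.12. All members share the same libraries, so a likeness of profiles in part repeats the differences between those libraries.

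Promoters are shown for HK2 and PFKFB3, the closest pair by profile, and for LDHA, the member with the most hypoxia-type motifs. RefSeq promoter sequences (GRCh38.p14, 250 bases before to 50 bases after the annotated start) were matched for 8 of the 10 genes, all but SLC2A3 and SLC16A1. Motifs were searched on both strands. The core of the hypoxia response element was searched in the form ACGTG and in the form GCGTG. The E-box CACGTG is bound by MYC and by the glucose-sensing Mondo factors, and it holds the first hypoxia form on each strand. GGAATG is bound by the TEAD partners of YAP. Sequences run 5′ to 3′ on the gene's strand, and capitals mark a hypoxia core or an E-box on either strand.
HK2, chr2:74833877-74834176, plus strand: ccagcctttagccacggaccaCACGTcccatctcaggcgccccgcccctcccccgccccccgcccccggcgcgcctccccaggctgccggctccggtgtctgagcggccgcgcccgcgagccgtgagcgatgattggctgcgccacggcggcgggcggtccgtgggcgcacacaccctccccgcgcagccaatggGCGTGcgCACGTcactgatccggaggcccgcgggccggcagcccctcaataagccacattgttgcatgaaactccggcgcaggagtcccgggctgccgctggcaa
PFKFB3, chr10:6144671-6144970, plus strand: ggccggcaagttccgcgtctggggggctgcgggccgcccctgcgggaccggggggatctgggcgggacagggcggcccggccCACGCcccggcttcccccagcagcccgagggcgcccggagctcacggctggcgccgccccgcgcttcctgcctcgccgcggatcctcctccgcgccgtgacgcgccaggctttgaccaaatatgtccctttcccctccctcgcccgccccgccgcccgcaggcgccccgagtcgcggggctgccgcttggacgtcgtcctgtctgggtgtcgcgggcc
LDHA, chr11:18394313-18394612, plus strand: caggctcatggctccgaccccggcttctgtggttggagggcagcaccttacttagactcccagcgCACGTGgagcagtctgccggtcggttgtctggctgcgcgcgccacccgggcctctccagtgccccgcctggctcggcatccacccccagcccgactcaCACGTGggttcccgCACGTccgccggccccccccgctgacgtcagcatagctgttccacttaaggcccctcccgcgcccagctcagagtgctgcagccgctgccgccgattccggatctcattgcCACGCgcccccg
Either form of the hypoxia core occurred in 5 of the 8 windows (62.5%), those of SLC2A1, HK2, PFKFB3, PFKFB4 and LDHA, and in 48.4% of all 27305 promoter windows. The E-box occurred in LDHA alone, with 2 sites, and in 7.43% of all windows. The TEAD motif was found in 0 of the 8, and in 14% of all windows. The windows of HK2 and PFKFB3 hold 38 and 42 CpG dinucleotides, beside a median of 14 over all promoters, and those of HK1 and PDK1 hold 1 and 6. Each gene has a single window, at a single annotated start, and use of that start in SW1990 was not tested. A match of letters describes the window and shows no binding. Whether sites go with changes in level was not tested, and SLC2A3, the called member, had no window.

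The other enzymes of glycolysis showed no called change. Of 23 listed genes 17 were tested and edgeR called 0 of them. By edgeR 2 of the 17 had an unadjusted p below 0.05, beside 20.6% of all tested genes. DESeq2 and limma voom called 0 as well. Their median log2 change was 0.00, with 8 negative and 9 positive values. The 4 with the lowest p were the muscle-type enolase gene ENO3 (log2 change 0.49), the platelet-type phosphofructokinase gene PFKP (-0.38), the aldolase gene ALDOA (-0.50) and the pyruvate kinase gene PKM (0.35). PKM had 4643 and 4195 CPM with gomisin G, against 3472 and 3445 CPM in vehicle, and did not pass the test (edgeR adjusted p = 0.382). ALDOA is uncertain, as 53.5% of its exonic bases are shared with other genes. The summed level of the 23 was 15754 and 13408 CPM with gomisin G, against 14242 and 13139 CPM in vehicle, so the groups lay closer than the gomisin G pair.

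**Figure D4:**
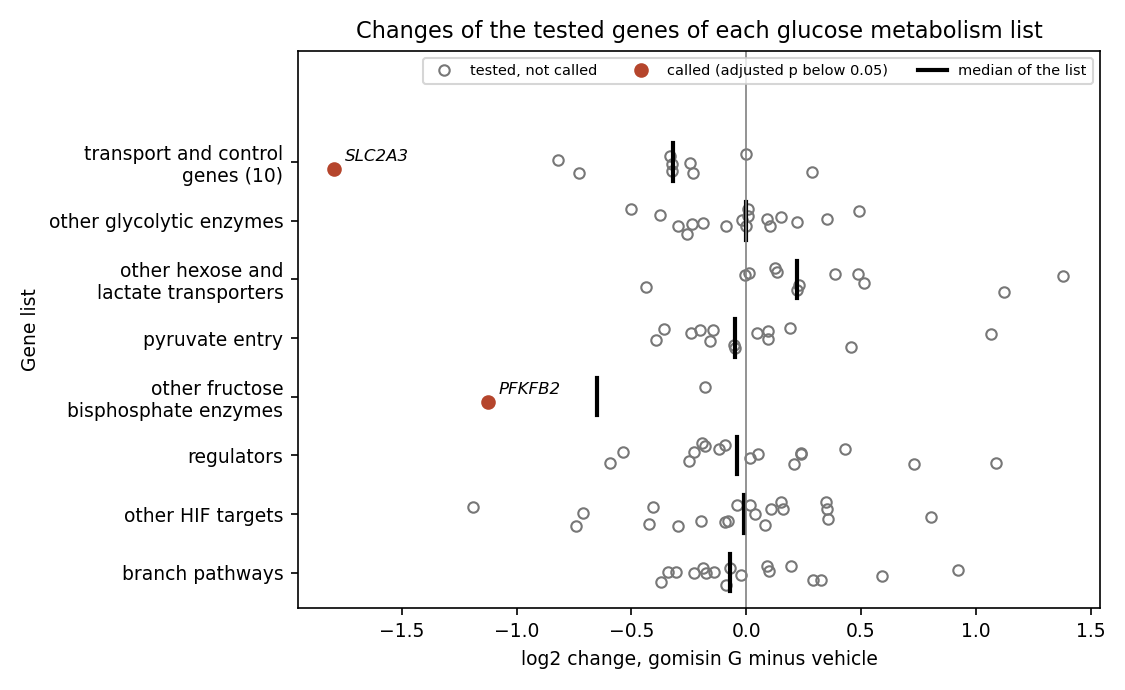
Log2 change, gomisin G minus vehicle, of each tested gene in the 10-gene set and in 7 lists of related genes, with the median of each list as a bar and called genes filled. SLC2A3 and PFKFB2 are the called genes, and the medians of the larger lists lie between -0.07 and 0.22.

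Of 17 other hexose and lactate transporters and their partners, 12 were tested and edgeR called 0 (2 had an unadjusted p below 0.05, beside 20.6% of all genes, and DESeq2 and limma voom called 0). Log2 changes were above 0 in 10 of the 12, beside 7977 of all 15721 tested genes, and the median of the 12 was 0.22. The 10 include SLC16A8, at 0.01, and SLC2A4, SLC2A12 and SLC5A2, each with at most 16 counts in a library. SLC2A6, which encodes the lysosomal GLUT6, had 6.49 and 9.22 CPM with gomisin G, against 3.24 and 3.97 CPM in vehicle (log2 change 1.12, edgeR adjusted p = 0.0858). SLC2A8, which encodes the intracellular transporter GLUT8, had a log2 change of 0.49 (edgeR adjusted p = 0.151). The sodium-coupled transporter gene SLC5A1, near its detection limit, had 1.38, which was 0.86 without vehicle replicate 1 and 2.21 without vehicle replicate 2. The inositol transporter gene SLC2A13 had -0.44. Of 14 genes for the entry of pyruvate into mitochondria all were tested and edgeR called 0 (1 had an unadjusted p below 0.05, beside 20.6% of all genes, and DESeq2 and limma voom called 0). PDK4, the kinase form linked to fasting and fat use, had 2.90 and 2.97 CPM with gomisin G, against 1.38 and 1.41 CPM in vehicle (log2 change 1.07, edgeR adjusted p = 0.137). DLAT, a subunit of pyruvate dehydrogenase, had -0.36, the pyruvate carrier gene MPC2 had 0.46, and PDPR, which regulates the phosphatase, had -0.39. The value of MPC2 rested on gomisin G replicate 1, at 58.2 CPM beside 34.8 CPM in gomisin G replicate 2, and was 0.04 without the first of them and 0.78 without the other. MPC2 shares 22.5% of its exonic bases with DCAF6 on the opposite strand and PDPR 19.6% with an antisense gene that had 0 counts.

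Among 17 regulators of glucose use, 16 were tested and edgeR called 0 (4 had an unadjusted p below 0.05, beside 20.6% of all genes). DESeq2 called TXNIP and MLXIPL, beside 5.62% of all tested genes, and limma voom called 0. TXNIP encodes a glucose-induced arrestin-like protein that removes GLUT1 and other transporters from the cell surface. It had 107 and 109 CPM with gomisin G, against 66.4 and 64.2 CPM in vehicle (log2 change 0.73, SE 0.15, edgeR adjusted p = 0.0561). The groups were tight and did not overlap, and the call turned with the setting: upper-quartile scaling, a filter of at least 50 counts and the removal of a gene length trend each placed it past the threshold. MLXIPL, which encodes the glucose-sensing factor ChREBP, had 34.7 and 36.4 CPM with gomisin G, against 12.9 and 20.6 CPM in vehicle (log2 change 1.09, edgeR adjusted p = 0.0610). ARRDC4, a relative of TXNIP also induced by glucose, had 26.7 and 28.1 CPM with gomisin G, against 34.0 and 28.6 CPM in vehicle (log2 change -0.19, edgeR adjusted p = 0.557). MYC had a log2 change of 0.24 (edgeR adjusted p = 0.392) and HIF1A one of -0.25 (edgeR adjusted p = 0.511). PRKAA1, an energy-sensing AMPK subunit, had -0.54, and VHL, which marks HIF proteins for degradation, had 0.43.

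The 20 HIF targets outside glycolysis were all tested, with a median log2 change of -0.01 and 10 negative and 10 positive values. Here edgeR and limma voom called 0, and edgeR gave 3 an unadjusted p below 0.05, beside 20.6% of all genes. DESeq2 called NDRG1 and PLOD2, beside 5.62% of all tested genes. NDRG1, a stress-induced differentiation gene, had 179 and 208 CPM with gomisin G, against 134 and 87.9 CPM in vehicle (log2 change 0.80, edgeR adjusted p = 0.101). PLOD2, a collagen lysyl hydroxylase gene, had 110.03 and 131 CPM with gomisin G, against 223 and 181 CPM in vehicle (log2 change -0.74, edgeR adjusted p = 0.0785). The carbonic anhydrase gene CA12 had a log2 change of -1.19 and the prolyl hydroxylase gene P4HA2 one of 0.35. In the pentose phosphate, hexosamine and glycogen branches, 17 of 18 genes were tested and edgeR and limma voom called 0. At an unadjusted p below 0.05 were 2 by edgeR, beside 20.6% of all genes. DESeq2 called 2 of the 17, beside 5.62% of all tested genes. They include PGLS, which encodes an enzyme of the pentose phosphate pathway. PGLS had 110.2 and 77.8 CPM with gomisin G, against 50.9 and 48.3 CPM in vehicle (log2 change 0.92, edgeR adjusted p = 0.0609). GNPNAT1, of hexosamine synthesis, had -0.37, with 35.6% of its exonic bases shared with an antisense gene at 0 counts, and the glycogen branching enzyme gene GBE1 had -0.34.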

How the data were processed

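RNA-seq counts of 4 SW1990 libraries were used. The table deposited by the authors holds whole-number counts of each gene, without normalization. The authors made them with fastp, HISAT2 and featureCounts on hg38, per the submitters' processing notes, which give no versions or settings. Strand use and the handling of reads matching several places are not given in the sources used here. The series table and the sample tables differed in 0 values, and all 58735 gene coordinates and exon lengths equalled those of GENCODE release 29. Groups came from the sample titles.

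Genes were tested with edgeR 4.0.16 in R 4.3.3 (default filter by group, TMM, robust quasi-likelihood F test, treatment alone, 2 residual degrees of freedom), after a test on simulated data. DESeq2 1.42.0 and limma 3.58.1 voom were alternatives. SE is the log2 change over the root of F. Ratios used counts plus 0.5, compared by exact permutation. A count of 0 allows 3 counts, 0.189 to 0.207 CPM, covering counting error only. Replicates differed by more than sampling noise (chi-square of 37.2 per gene for gomisin G and 6.98 for vehicle).

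The members, lists, motifs and tests were chosen with earlier results of these data known. Named genes were all members, every called gene of a list or otherwise its 4 lowest p, and LDHB, MYC, HIF1A, TXNIP and ARRDC4. COL1A1, PDGFRB and other genes outside this rule were named after their values were seen. The values of 1 gene that the rule names are not reported here.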

Additional observations from a re-analysis of the deposited data

How the results depend on the processing

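The count of called genes among the 10 was 1 with edgeR and stayed 1, SLC2A3, with RLE or upper-quartile factors, without the filter, with the filter of at least 50 counts in 2 libraries, with limma voom, with the legacy estimation, with the length trend removed and without either vehicle library. It was 3 with DESeq2, and 1 to 6 when a library was left out. LDHA and SLC16A1 joined HK2, PFKFB3 and SLC2A3 without gomisin G replicate 1, and PDK1, PFKFB4 and SLC16A1 joined them without gomisin G replicate 2. Fits without a gomisin G library rest their spread on the vehicle pair. Over all tested genes the count was 287, against 883 with DESeq2, 900 with the length trend removed, and 135 to 6322 when a library was left out (2835 and 6322 without the first or second gomisin G library, 160 and 135 without the first or second vehicle library). In the pathway lists the count was 1, against 2 with upper-quartile factors, 2 with at least 50 counts in 2 libraries, 7 with DESeq2, 6 with the length trend removed, and 0 to 35 when a library was left out.

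Replicate numbers are shared by the groups, but the labels do not say what they mean. Deviations of the replicate 1 libraries from their group means had a correlation of 0.263 over genes, and 2 pairs are too few to show pairing. With the replicate number as a block, 1 residual degree of freedom was left. The replicate block gave 3 called members (HK2, PFKFB3 and SLC2A3). It called 13 of the 98 tested genes of the pathway lists and 2886 of all 15721 tested genes. The ratio differences under the block equal the main ones by arithmetic, so their sameness says nothing about stability.

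Of 130 pairs of a member and an alternative, 9 reversed the sign. For HK1, whose change was near 0, the values were 0.001 with RLE factors, 0.001 with DESeq2, 0.058 with upper-quartile factors, 0.017 with at least 50 counts, 0.075 with the length trend removed, 0.026 without gomisin G replicate 1 and 0.006 without vehicle replicate 2, in a leave-one-out range of -0.029 to 0.026. PFKFB4 was at 0.009 without vehicle replicate 1 (leave-one-out range -0.599 to 0.009) and SLC16A3 at -0.031 without vehicle replicate 2 (-0.031 to 0.688). LDHB, of the other named genes, was at -0.246 without gomisin G replicate 1 (-0.246 to 0.576). The cause of these shifts was not tested. The median of the members ran from -0.42 to -0.19. With 2 libraries a group, leaving out 1 cannot test the stability of a ratio difference.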
